A study of Mus musculus with 6 samples.

Results

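The lung immune cells described here are 205 of the 70427 cells of 4 single-cell RNA libraries of the postnatal mouse lung. They were chosen by measured transcript counts of 11 genes, which are therefore not findings. A barcode was kept as a cell with at least 1500 UMIs (unique molecular identifiers, each standing for 1 captured transcript) in the Bdnf libraries or 700 in the Hgf libraries and at most 25% mitochondrial UMIs. A cell counted as immune when at least 3 of the 6 pan-leukocyte genes Ptprc, Laptm5, Tyrobp, Fcer1g, Coro1a and Cd52 were detected and the 5 structural genes Pecam1, Cldn5, Col1a2, Etv5 and Rtkn2 together gave at most 1 UMI. Ptprc encodes CD45, the surface phosphatase of leukocytes, and the structural genes mark endothelium, fibroblasts and alveolar epithelium.

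The study asked what pericytes, the mural cells of capillaries, supply to the growing lung, by deleting the genes of 2 secreted factors, Bdnf and Hgf, with a tamoxifen-inducible Cre driven from a Pdgfrb transgene (Pdgfrb(BAC)-CreERT2). Each of the 4 libraries came from 1 genotype: Bdnf lox/lox and Hgf lox/lox controls, which carry the floxed allele without the Cre, and Bdnf iPCKO and Hgf iPCKO mutants, which carry both. All pups, controls included, received 50 µg tamoxifen on postnatal days 1 to 3, and lungs were taken at postnatal day 21. Cells of 2 mice were pooled in each library, their sex was not given in the labels, and Pdgfrb is active in mural cells and only weakly in some fibroblasts, so leukocytes were not the intended target of the deletion. Before capture the lung suspensions were depleted of CD45+ and Ter119+ cells with magnetic beads. The 205 cells are therefore what remained after a step meant to remove them, and their shares do not give the makeup of the lung's leukocytes. The study's other 2 libraries, Nodal lox/lox and Nodal iPCKO, came from cerebral cortex at postnatal day 12 after the same tamoxifen doses and are used only where named. With 1 library per genotype no difference between genotypes can be tested. Every interval below is an exact 95% interval that covers counting error alone, not the spread between mice.

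Leukocytes of the lung include resident alveolar macrophages, which clear surfactant, and cells that arrive with the blood, such as neutrophils, monocytes, lymphocytes and basophils. Basophils and mast cells both carry the high-affinity receptor for immunoglobulin E (IgE) and store histamine. They differ in their granule proteases and in Kit, the stem cell factor receptor, which mast cells keep. Lung-resident basophils are known to express cytokines and growth factors that act on alveolar macrophages. Hgf encodes hepatocyte growth factor, the ligand of the receptor tyrosine kinase Met, and Bdnf encodes brain-derived neurotrophic factor, the ligand of TrkB (Ntrk2).

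Immune cells numbered 40 of 16749 cells in Bdnf lox/lox (0.239%, Clopper-Pearson interval 0.171 to 0.325), 22 of 23765 in Bdnf iPCKO (0.0926%, 0.0580 to 0.140), 75 of 14095 in Hgf lox/lox (0.532%, 0.419 to 0.667) and 68 of 15818 in Hgf iPCKO (0.430%, 0.334 to 0.545). The share was lower in the Bdnf mutant than in its control, with a log2 ratio of -1.37 (-2.19 to -0.58), whereas the interval of the Hgf pair held 0 (-0.31, -0.80 to 0.19). The control libraries also differed from each other. With 1500 UMIs required in both, Hgf lox/lox held a larger share than Bdnf lox/lox by a log2 ratio of 1.31 (0.73 to 1.90), a distance of the same order as that between Bdnf mutant and control. How completely the beads removed leukocytes from each suspension is not measured in these data, and its part in these shares was not tested. Under the same marker limits such cells made up 17.6% and 20.1% of the cortex libraries, for which the labels name removal of myelin debris and no CD45 depletion, so these shares are not set against those of lung.

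**Figure D1:**
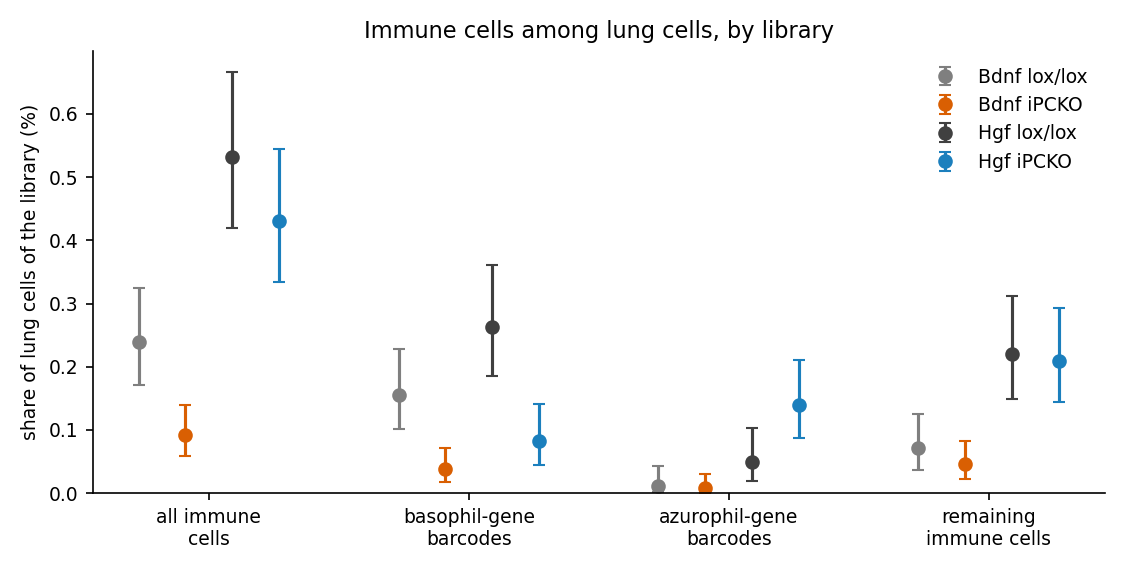
Share of all lung cells of a library (%, vertical axis) held by all immune cells, by basophil-gene barcodes, by azurophil-gene barcodes and by the remaining immune cells. Each point is 1 library and each bar its exact binomial 95% interval. Basophil-gene barcodes sit lower in both mutants than in their controls, and azurophil-gene barcodes sit highest in Hgf iPCKO.

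Of the 205 cells 73 showed all 6 leukocyte genes and 36 showed exactly 3, and a further 23 cells with 2 of the genes lay just outside. Of the cells with 3 or more leukocyte genes, 126 had no UMI of the structural genes and 79 had 1, while 42 with over 1 and up to 2 and 94 with over 2 were left out. Ptprc, one of the genes the rule used, stood at 203 to 370 counts per 1000000 UMIs (CPM, summed over the immune cells of a library) against 0.493 to 1.74 CPM in the other lung cells. No immune barcode sequence was shared between lung libraries, although 243 to 432 cell barcodes were shared in each pair of libraries. Immune cells had a median of 5014, 4237, 3819 and 6326 UMIs in Bdnf lox/lox, Bdnf iPCKO, Hgf lox/lox and Hgf iPCKO, against 7196, 5085, 3988 and 2857 in the other cells of the same libraries. Listed transcripts of alveolar type 2 cells summed to 274 to 2465 CPM in immune cells against 30948 to 67296 CPM in the other cells. Those of club cells summed to 320 to 2535 CPM against 4458 to 13697 CPM, and mesothelial genes were at 0 in immune cells.

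Marker lists for 16 leukocyte classes sorted 137 of the cells and left 68 unassigned. The largest classes were basophil-like with 48 cells, neutrophil-like with 25, classical monocyte-like with 19, B-cell-like with 16, alveolar macrophage-like with 10 and T-cell-like with 9. The rule itself bears on these sizes. Tyrobp and Fcer1g gave no UMI in the 9 T-cell-like cells, which had to pass on the remaining leukocyte genes. No cell met the mast cell list, and the mast cell proteases Mcpt4, Tpsb2 and Tpsab1 gave no UMI in any library, while Cma1 (mast cell chymase) gave 6 UMIs, all in Hgf lox/lox. A count of 0 was read against a floor of 3 UMIs for each of these genes in a library, so it does not show absence. Kit, a mast cell and progenitor receptor, was detected in 13 cells outside every class and group, 4, 4, 3 and 2 in Bdnf lox/lox, Bdnf iPCKO, Hgf lox/lox and Hgf iPCKO. Of these, the cell of Hgf lox/lox that carried the 6 Cma1 UMIs also held 35 UMIs of Cpa3 (carboxypeptidase A3, a granule protease) and 4 of Kit. Because cells with other basophil genes had stayed unassigned, and because a group of cells rich in azurophil granule genes had no list, 2 further groups were defined after the data had been seen. Basophil-gene barcodes carried at least 3 of Mcpt8, Cd200r3, Prss34, Il4, Ms4a2, Fcer1a, Cpa3 and Gata2, with Ms4a2 or Cd200r3 among them. Azurophil-gene barcodes carried at least 2 of Mpo, Prtn3, Elane and Ctsg with at least 5 UMIs in sum. Basophil-gene barcodes numbered 85, of which 47 were in the basophil-like class and 38 had been unassigned. Azurophil-gene barcodes numbered 33 (17 classical monocyte-like, 10 neutrophil-like, 6 unassigned), and 87 cells belonged to neither group.

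**Figure D2:**
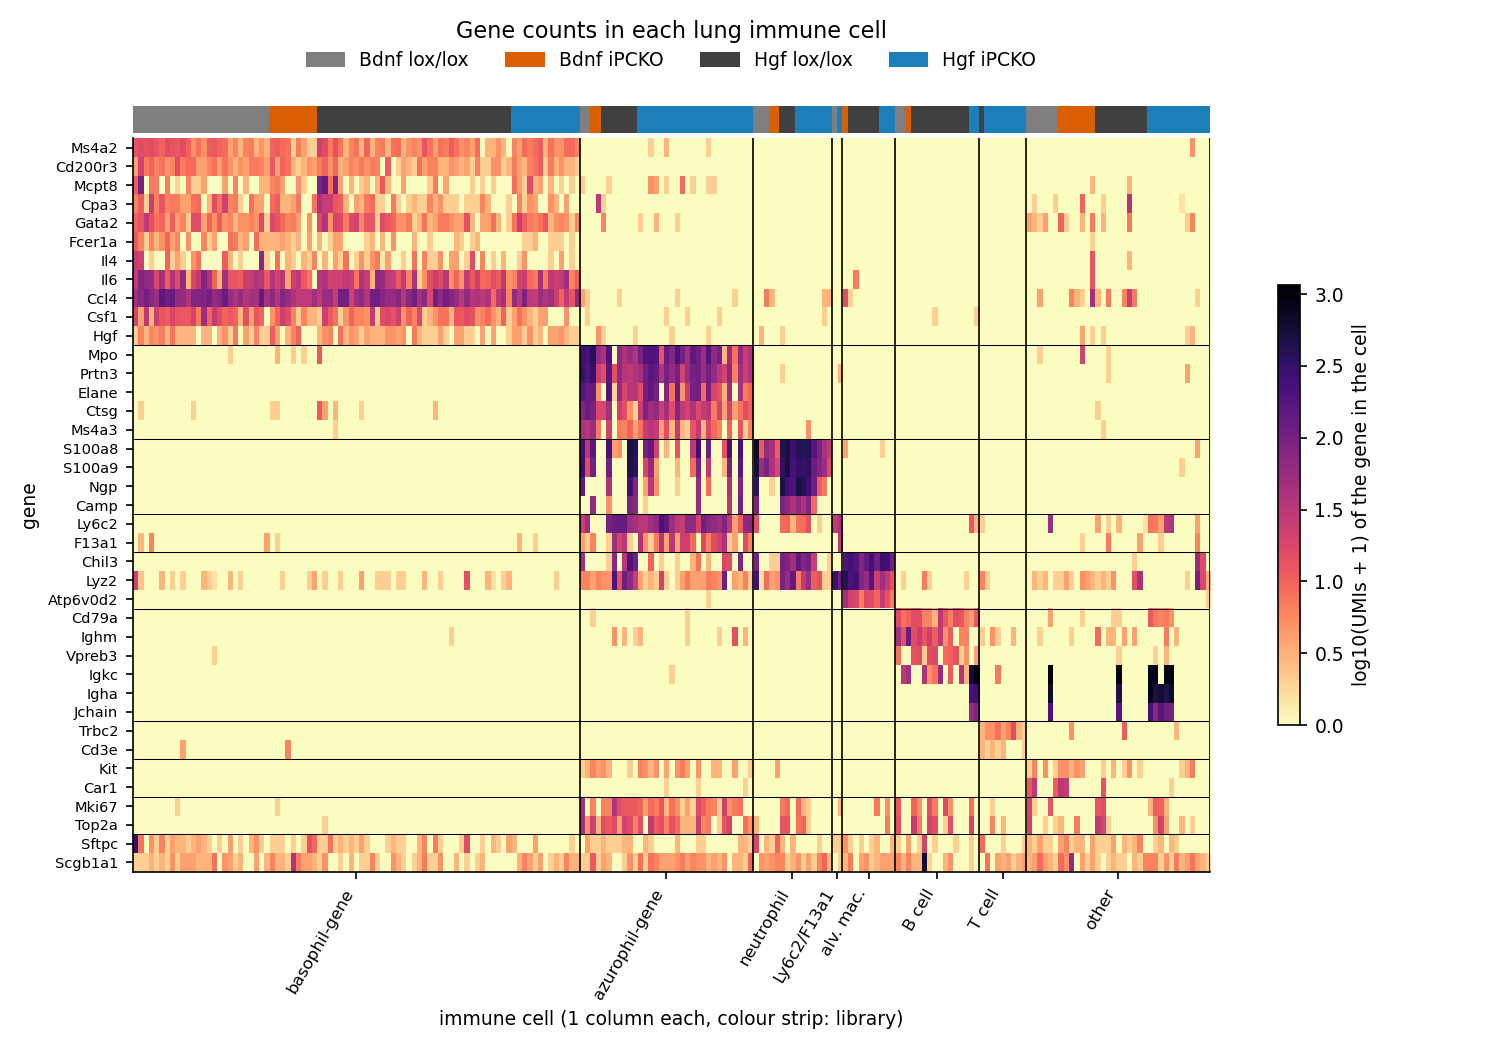
UMIs of selected genes (rows) in each of the 205 lung immune cells (columns, ordered by group, with the library as a colour strip). Colour gives log10(UMIs + 1). Il6, Ccl4, Csf1 and Hgf lie mostly within the basophil-gene block, whereas S100a8 and Ngp are found both in neutrophil-like cells and in some azurophil-gene barcodes.

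Basophil-gene barcodes were found in every lung library, with 26 in Bdnf lox/lox, 9 in Bdnf iPCKO, 37 in Hgf lox/lox and 13 in Hgf iPCKO. They held a median of 2992 UMIs. The genes used to pick them are a description of the choice. Ms4a2, the beta chain of the high-affinity IgE receptor, was detected in 83 of the 85 barcodes with a median of 6 UMIs. Cd200r3, an activating receptor of basophils and mast cells, was also found in 83, Gata2, a transcription factor of this lineage, in 81, Cpa3 (carboxypeptidase A3) in 67, Fcer1a (the IgE-binding chain) in 48 and Mcpt8 (a protease characteristic of mouse basophils) in 47. Prss34, a second basophil protease, was uneven. It was seen in 17 barcodes, 1 barcode gave 195 of the 204 UMIs in Bdnf lox/lox, and 3 barcodes gave 933 of the 963 UMIs in immune cells of Hgf lox/lox. Kit, which mast cells keep, gave no UMI in any of the 85.

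GATA factors bind DNA at a GATA core, most often followed by A or G. Because Gata2 was detected in nearly all of these barcodes, the 250 bases before the RefSeq start of the genes used to define them were searched for GATAA on either strand. At least 1 match lay before 5 of the 8 genes and in 5 of their 10 windows (50%), against 7418 of 32851 such windows over all genes (22.6%). Windows without a match, such as those of Gata2, are not shown. Of the genes with a match, those detected in the most basophil-gene barcodes were chosen. The windows of Ms4a2 (3 matches), Cd200r3 (2) and Cpa3 (1) are shown. They are at chr19:11623720-11623969 on the minus strand, chr16:44943428-44943677 on the plus strand and chr3:20242182-20242431 on the minus strand of GRCm38.p6, the build of the RefSeq table, not of the count files. They are written 5′ to 3′ on the strand of the gene, with GATAA or its reverse complement TTATC in capitals.
Ms4a2: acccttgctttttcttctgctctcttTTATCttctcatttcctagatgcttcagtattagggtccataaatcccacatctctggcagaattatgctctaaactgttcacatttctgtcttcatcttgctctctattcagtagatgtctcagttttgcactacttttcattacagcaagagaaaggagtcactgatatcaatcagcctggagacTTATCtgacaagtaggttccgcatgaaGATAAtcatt
Cd200r3: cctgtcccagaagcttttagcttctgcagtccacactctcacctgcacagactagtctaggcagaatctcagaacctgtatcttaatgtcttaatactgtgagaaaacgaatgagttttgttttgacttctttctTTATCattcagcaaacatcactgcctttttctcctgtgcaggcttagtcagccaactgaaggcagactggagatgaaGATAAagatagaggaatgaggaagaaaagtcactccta
Cpa3: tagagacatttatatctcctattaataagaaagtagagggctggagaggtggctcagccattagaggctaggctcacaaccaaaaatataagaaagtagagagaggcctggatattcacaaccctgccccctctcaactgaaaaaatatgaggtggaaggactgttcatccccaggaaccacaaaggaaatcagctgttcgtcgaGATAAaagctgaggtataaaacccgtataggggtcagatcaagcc
Mcpt8, Il4, Gata2 and Hgf held no GATAA in these windows. With GATAG counted too, which the capitals do not mark, 1 window of Il4 and 1 of the 2 of Hgf held a match, and the shares became 6 of 10 windows (60%) and 37.4% of all windows. A match is a run of letters and does not show that a factor binds there.

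Secreted mediators were among the transcripts that the choice had not used. Ccl3 and Ccl4, chemokines that attract monocytes and lymphocytes, were detected in all 85 barcodes with medians of 57 and 55 UMIs per barcode. Il6, a pleiotropic inflammatory cytokine, was detected in 84 with a median of 21, and Hdc, the enzyme that makes histamine, in all 85 with a median of 15. Osm (oncostatin M) was found in 80 barcodes and Csf1, the growth factor of macrophages, in 79. The type 2 cytokine Il13 was found in 31, and Il4, another of them that had also served to pick the barcodes, in 48. The inflammasome sensor Nlrp3 was found in 84. Of all UMIs of these genes in lung immune cells, basophil-gene barcodes held 99.1% for Il6, 99.1% for Csf1 and 97.4% for Ccl4. Csf2rb, the shared beta chain of the receptors for IL-3, IL-5 and GM-CSF, was detected in all 85. Division genes were nearly absent, with Top2a (a topoisomerase of dividing cells) in 1 and Mki67 (a proliferation antigen) in 2 of the 85. Immediate-early genes, which enzymatic dissociation is known to switch on, were high in the same barcodes, with Egr1 at 5638 CPM, Fosb at 4200 CPM and Junb at 3763 CPM. Their part in the cytokine levels was not tested.

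Il6 was at similar levels in the 4 libraries. In basophil-gene barcodes it ranged from 2 to 84 UMIs with a median of 26 in Bdnf lox/lox, from 0 to 35 with a median of 20 in Bdnf iPCKO, from 1 to 64 with a median of 21 in Hgf lox/lox and from 5 to 48 with a median of 20 in Hgf iPCKO. The 4 ranges overlapped. Summed, Il6 stood at 6906, 5669.6, 6869 and 7004 CPM, and the log2 ratio of mutant to control was -0.28 (-0.54 to -0.03) in the Bdnf pair and 0.03 (-0.18 to 0.24) in the Hgf pair.

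The number of these barcodes did differ. As a share of all lung cells they stood at 0.155% in Bdnf lox/lox, 0.0379% in Bdnf iPCKO, 0.263% in Hgf lox/lox and 0.0822% in Hgf iPCKO, so that both mutants were below both controls. The log2 ratio of mutant to control was -2.04 (-3.31 to -0.90) in the Bdnf pair and -1.68 (-2.71 to -0.73) in the Hgf pair. Both intervals left out 0 but describe 1 library each. With the smaller basophil-like class of the marker lists the ratio was -0.67 (-2.25 to 0.87) in the Bdnf pair, whose interval held 0, and -1.69 (-3.06 to -0.48) in the Hgf pair. The 2 control libraries differed by a log2 ratio of 0.87 (0.09 to 1.66) at a common minimum of 1500 UMIs. The CD45 depletion touches these shares as it does those of all immune cells. Detection of at least 3 of the picking genes also depends on depth. The barcodes held medians of 4187, 3045, 2663 and 2795 UMIs in Bdnf lox/lox, Bdnf iPCKO, Hgf lox/lox and Hgf iPCKO. Il4 and Mcpt8, which served to pick them, were themselves lower in both mutants. The part of depth and of these genes in the shares was not tested.

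Hgf, the gene deleted from pericytes in the Hgf mutant, was itself a transcript of basophil-gene barcodes. Over all lung cells Hgf gave 1041 UMIs in Bdnf lox/lox, 764.5 in Bdnf iPCKO, 575 in Hgf lox/lox and 158 in Hgf iPCKO. The 26, 9, 37 and 13 basophil-gene barcodes held 68, 29, 82 and 28 of them. They were 6.53% of the Hgf UMIs in 0.155% of the cells of Bdnf lox/lox, 3.79% in 0.0379% of Bdnf iPCKO, 14.3% in 0.263% of Hgf lox/lox and 17.7% in 0.0822% of Hgf iPCKO. These barcodes thus held a far larger part of the Hgf transcripts than of the cells in every library.

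The Hgf level within basophil-gene barcodes was 586 CPM (exact Poisson interval 455 to 743) in Bdnf lox/lox, 1061 (710 to 1523) in Bdnf iPCKO, 763 (607 to 947) in Hgf lox/lox and 784 (521 to 1134) in Hgf iPCKO. Outside the immune cells it stood at 7.01, 4.84, 7.88 and 2.19 CPM, and in free RNA, read from barcodes with 10 to 100 UMIs, at 19.5, 8.21, 17.2 and 8.09 CPM. Immune cells outside the basophil-gene group gave 2, 8, 4 and 5 Hgf UMIs. Single barcodes held 0 to 7 Hgf UMIs in Bdnf lox/lox, 0 to 10 in Bdnf iPCKO, 0 to 7 in Hgf lox/lox and 0 to 4 in Hgf iPCKO, with a median of 2 in each, and the 4 groups overlapped fully. Hgf was detected in 23 of 26, 5 of 9, 30 of 37 and 12 of 13 barcodes. When every barcode was thinned to 700 UMIs these became 5, 3, 14 and 8, or 19.2%, 33.3%, 37.8% and 61.5%. Unthinned, 4.18%, 2.36%, 2.85% and 0.711% of the other lung cells, a set that contains the mural and mesenchymal producers of Hgf, showed an Hgf UMI at median depths of 7196, 5085, 3988 and 2857.

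Summed over all immune cells Hgf was lower in Hgf iPCKO than in Hgf lox/lox, at 52.3 against 190 CPM (log2 ratio -1.86, -2.49 to -1.27). Within basophil-gene barcodes the ratio was 0.04 (-0.63 to 0.67), so that the lower sum went with the smaller share of these barcodes among the immune cells, 13 of 68 against 37 of 75. In the Bdnf pair Hgf stood at 223 against 229 CPM over all immune cells (-0.04, -0.66 to 0.55) and at 1061 against 586 CPM within basophil-gene barcodes (0.86, 0.18 to 1.50). The last value rests on 5 barcodes with Hgf, of which 1 gave 34.5% of the UMIs. The Hgf gene lies at chr5:16758041-16828178 on the plus strand (GRCm39). Which exon the floxed allele loses was not read from the files, and UMIs from outside that exon would not report the deletion. The study did report strongly reduced Hgf transcripts in lung pericytes of the Hgf mutant. In the other lung cells Hgf stood at 7.88 CPM in Hgf lox/lox and 2.19 CPM in Hgf iPCKO. Whether basophil-gene barcodes carry the deletion was not tested.

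**Figure D3:**
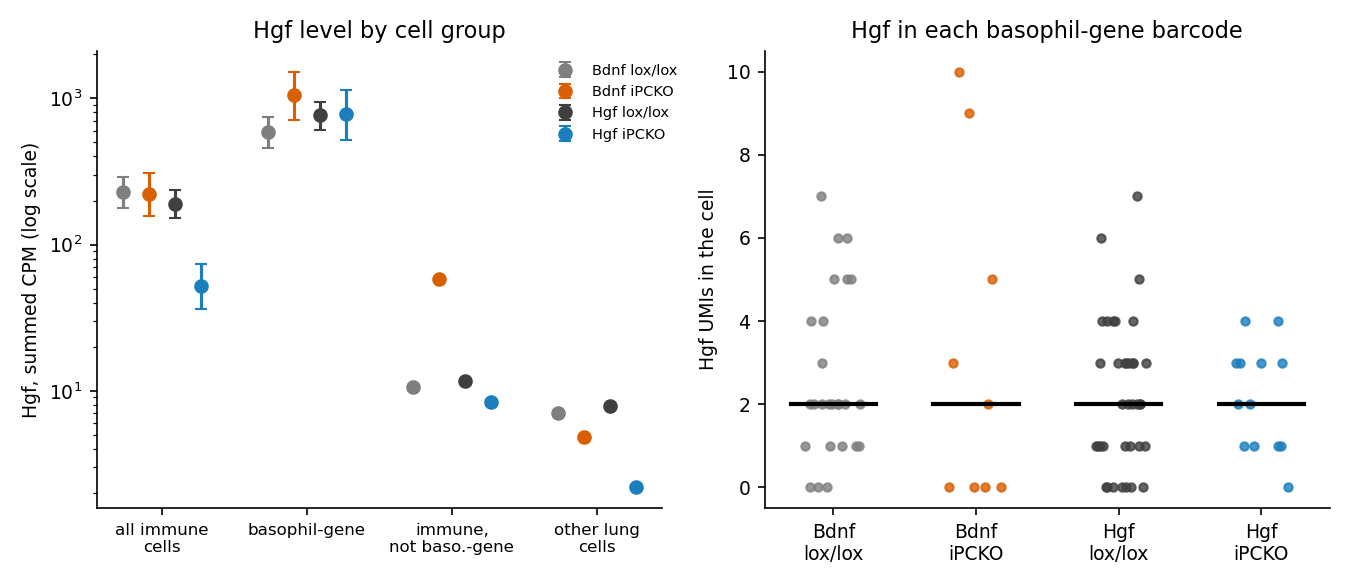
Left, Hgf level (summed CPM, log scale) in all immune cells, basophil-gene barcodes, the remaining immune cells and the other lung cells of each library. Exact Poisson 95% intervals are drawn for all immune cells and basophil-gene barcodes only. Right, Hgf UMIs in each basophil-gene barcode, 1 point per barcode. The 4 libraries lie between 586 and 1061 CPM in basophil-gene barcodes, while the other lung cells lie between 2.19 and 7.88 CPM. The latter is an average over all other cell types, and the level of the mural and mesenchymal producers of Hgf alone is not shown.

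Bdnf was not detected in any of the 205 immune cells, while the other lung cells stood at 24.3 to 30.2 CPM. The 0 UMIs allow up to 3 UMIs, or a Bdnf level of up to 9.82, 18.1, 6.62 and 4.76 CPM in the 4 libraries, each below that of the other cells. Met, the receptor for hepatocyte growth factor, gave 4, 0, 10 and 13 UMIs in immune cells (0 to 22.1 CPM against 45.6 to 123 CPM in the other cells), and Ntrk2 gave 0, 1, 1 and 0. In Hgf iPCKO the Met level was 20.6 CPM against 45.6 CPM in the other cells, and 10.3% of immune cells against 12.6% of the others held a UMI.

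Other mediators of basophil-gene barcodes were compared between mutant and control at the level of the sum, where 1272 genes in the Bdnf pair and 1205 in the Hgf pair reached 20 UMIs over both libraries together. Of these, 5.9% were at least 2-fold higher and 15.7% at least 2-fold lower in Bdnf iPCKO, and 6.72% were higher and 15.4% lower in Hgf iPCKO. The mutant sums were smaller. In them 1 UMI stood for 36.6 CPM in Bdnf iPCKO against 8.62 in Bdnf lox/lox, and for 28.0 in Hgf iPCKO against 9.31 in Hgf lox/lox. Counting error was therefore wider on the mutant side, and its part in the larger share of lower genes was not tested. Between the 2 control libraries 8.49% were at least 2-fold higher and 9.89% lower in Hgf lox/lox, so folds of this size arose without any Cre. Among the 22 listed cytokines and growth factors 9 reached the minimum in the Bdnf pair, 0 higher and 3 lower (Lif, Il4, Il13), with a median log2 ratio of -0.50 against -0.09 over all genes. In the Hgf pair 11 did, 2 higher (Lif, Tnf) and 3 lower (Il1b, Csf1, Il4), with a median of 0.03 against -0.09. Il1b, with 33 against 5 UMIs, had an interval that held 0.

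In the Hgf pair Tnf (log2 ratio 3.05, 2.36 to 3.79) and Lif (4.45, 2.94 to 6.42) were higher in the mutant, and 1 barcode gave 47.0% and 69.0% of their mutant UMIs. Csf1 was lower in that mutant. Per barcode it ranged from 1 to 25 UMIs with a median of 7 in Hgf lox/lox and from 0 to 7 with a median of 2 in Hgf iPCKO, so the ranges overlapped and no mutant barcode passed the control median. The sums were 305 and 27 UMIs, or 2839 and 756 CPM (log2 ratio -1.91, -2.53 to -1.34). In the Bdnf pair the ranges were 0 to 53 (median 11) and 1 to 21 (median 5), and the log2 ratio was -0.33 (-0.74 to 0.06). Tnf, an early inflammatory cytokine, went the other way in the Hgf pair, at 223 CPM in Hgf lox/lox and 1849 CPM in Hgf iPCKO, where 1 barcode gave 47.0% of the UMIs. Its ratio in the Bdnf pair was -0.98 (-2.25 to 0.08). Lif, a cytokine of the IL-6 family, gave 4 UMIs in Hgf lox/lox and 29 in Hgf iPCKO, 69.0% of the latter from 1 barcode.

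Il4, one of the genes that picked the barcodes, was lower in both mutants. It ranged from 0 to 69 UMIs in Bdnf lox/lox and from 0 to 7 in Bdnf iPCKO, with a median of 1 in each, and from 0 to 15 in Hgf lox/lox and 0 to 4 in Hgf iPCKO, with medians of 1 and 0. The log2 ratio was -1.03 (-1.82 to -0.32) in the Bdnf pair, where 1 control barcode gave 44.2% of the UMIs, and -1.43 (-2.54 to -0.48) in the Hgf pair. Il13, its neighbour in function, was at -2.00 (-4.33 to -0.37) in the Bdnf pair on 51 and 3 UMIs and at -0.07 (-1.69 to 1.31) in the Hgf pair on 19 and 6.

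Of the 11 listed proteases 3 reached the minimum. Mcpt8 was at -0.86 (-1.63 to -0.16) in the Bdnf pair and -1.69 (-2.23 to -1.19) in the Hgf pair. Single control barcodes gave 63.7% and 37.0% of its UMIs. Cpa3 was at -0.02 (-0.57 to 0.50) in the Bdnf pair and -1.37 (-2.08 to -0.72) in the Hgf pair, with medians of 5 and 3 and of 1 and 1 UMIs per barcode. Prss34 was at -5.59 and -5.15, a ratio set by the few control barcodes named above. These 3 genes also served to pick the barcodes. The chemokines Ccl3 (-0.39 and -0.03) and Ccl4 (-0.20 and -0.44) differed by less than 2-fold in both pairs, while Cxcl2, a neutrophil attractant, was at -1.12 (-1.91 to -0.42) and -1.38 (-2.13 to -0.71). Of the chemokine receptors Cxcr2, the receptor of Cxcl2, was at 0.01 in the Bdnf pair and -1.68 (-2.86 to -0.69) in the Hgf pair, and Cxcr4, which binds CXCL12, was at -0.12 and -1.46 (-2.42 to -0.63).

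Of the 10 listed histamine and lipid mediator genes 6 reached the minimum in each pair. None of these 6 was at least 2-fold higher in either pair, while 1 was lower in the Bdnf pair (Slc18a2) and 2 in the Hgf pair (Slc18a2, Ptgs2). Over all genes compared, 5.9% were higher and 15.7% lower in the Bdnf pair, and 6.72% and 15.4% in the Hgf pair. The median log2 ratios of the 6 were 0.33 and 0.06. Alox5, Alox5ap and Srgn stood at 0.85, 0.45 and -0.21 in the Bdnf pair and at 0.24, 0.28 and 0.25 in the Hgf pair, and only the interval of Srgn in the Hgf pair (0.05 to 0.44) left out 0. Hdc was at 0.22 (-0.03 to 0.45) and -0.13 (-0.41 to 0.15). Slc18a2, the vesicular transporter that loads histamine into granules, was lower in both mutants at -1.41 (-2.77 to -0.30) and -1.64 (-2.90 to -0.59). In Bdnf iPCKO it rested on 7 UMIs, 85.7% of them from 1 barcode. Ptgs2 (cyclooxygenase 2) was at 0.57 (0.21 to 0.91) in the Bdnf pair, with 55.9% of the mutant UMIs from 1 barcode, and at -1.40 (-1.94 to -0.90) in the Hgf pair. Alox15, a lipoxygenase gene outside this list, was at least 2-fold higher in Hgf iPCKO. Its log2 ratio in the Hgf pair was 1.48 (0.82 to 2.15), on 42 control and 39 mutant UMIs. In the Bdnf pair Alox15 was at 0.34 (-0.37 to 0.995), an interval that held 0. Il1rl1, the IL-33 receptor, was at -0.10 (-0.93 to 0.65) and at 1.14 (0.48 to 1.80), and Ms4a2 at -0.15 and 0.13. Over protein-coding-like genes with 100 UMIs in the pair the ends of the Hgf pair were Prss34, Dusp5, Klf5, Csf1 and Fam107b on the low side and Glul, Rsrp1, Hexim1, Ifitm1 and Cd69 on the high side. In the Bdnf pair they were Prss34, Sftpa1, Ddit4, Sftpc and Csf2rb2 and, on the high side, Scgb1a1, Gnas, Arhgap15, Cltc and Kdm6b. Sftpa1, Sftpc and Scgb1a1 are epithelial secretory transcripts, and single barcodes gave 88.4%, 87.1% and 61.3% of their UMIs in the library where they were higher.

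**Figure D4:**
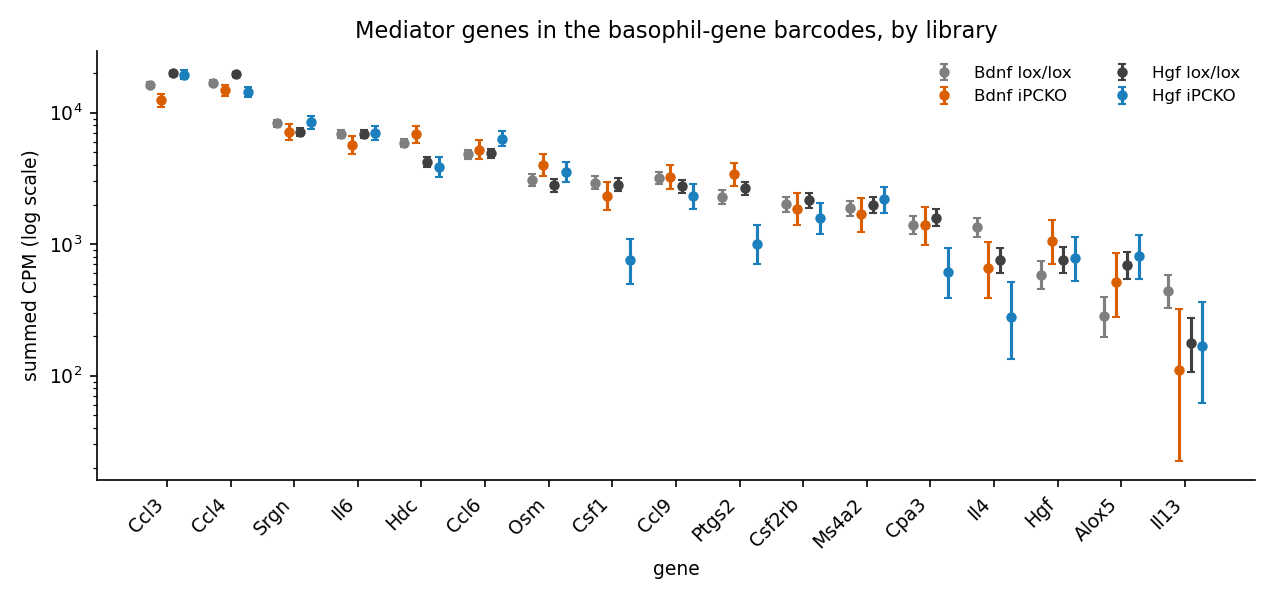
Level of granule, receptor, cytokine and chemokine genes (summed CPM, log scale) in the basophil-gene barcodes of each library, with exact Poisson 95% intervals. Il6 lies between 5669.6 and 7004 CPM in the 4 libraries, while Csf1, Ptgs2, Cpa3 and Il4 are lowest in Hgf iPCKO.

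The azurophil-gene barcodes held a median of 18963 UMIs, against 2992 in basophil-gene barcodes. Azurophil granules are the first granules made by neutrophil precursors in the marrow, and some monocyte precursors make the same proteins. There were 2 such barcodes in Bdnf lox/lox, 2 in Bdnf iPCKO, 7 in Hgf lox/lox and 22 in Hgf iPCKO. In the Hgf pair the log2 ratio of their share of all lung cells was 1.49 (0.21 to 2.96), opposite in direction to that of the basophil-gene barcodes. Between the control libraries the ratio of Hgf lox/lox to Bdnf lox/lox was larger, at 2.06 (-0.34 to 5.36), from 7 and 2 cells, with an interval that held 0. Both Bdnf libraries were at or under 3 cells and give no fold. Mpo (myeloperoxidase), among the genes that picked them, ranged from 233 to 278 UMIs in Bdnf lox/lox, 59 to 379 in Bdnf iPCKO, 0 to 188 in Hgf lox/lox and 2 to 204 in Hgf iPCKO.

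Genes of both monocytes and neutrophils were detected in these barcodes. Ms4a3, a gene of granulocyte and monocyte precursors, was detected in 29 of 33. Ly6c2, a surface protein of classical monocytes, was detected in 30 with a median of 51 UMIs, and F13a1 (coagulation factor XIII, a monocyte transcript) in 28. S100a8, the calcium-binding protein of neutrophils, was detected in 19 and ranged from 0 to 480 UMIs, and Fcnb (ficolin B) was detected in 15. Ly6c2 and S100a8 were detected together in 18 barcodes, Ly6c2 without S100a8 in 12 and S100a8 without Ly6c2 in 1. Of the 19 classical monocyte-like cells 17 were azurophil-gene barcodes, 14 of them in Hgf iPCKO, so this class held few cells without granule precursor transcripts. Top2a and Mki67 were each detected in 29 of 33, and Kit in 20. Of the 47 immune cells with at least 5 UMIs of Mki67 or Top2a, 25 were azurophil-gene barcodes and 0 were basophil-gene barcodes. These groups held 33 and 85 of the 205 cells, at medians of 18963 and 2992 UMIs. A fixed count is easier to reach at the greater depth, and the part of depth in this contrast was not tested. The Hgf libraries overlapped per barcode. Mki67 ranged from 5 to 36 UMIs in Hgf lox/lox and from 0 to 21 in Hgf iPCKO, and Ly6c2 from 0 to 133 and from 3 to 214. Ly6c2 and its near copy Ly6c1 share reads, which the deposited counts divide between them by estimate, so its UMIs are less certain.

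A further 15 neutrophil-like cells lay outside the azurophil-gene group, 3 in Bdnf lox/lox, 2 in Bdnf iPCKO, 3 in Hgf lox/lox and 7 in Hgf iPCKO. S100a8 and S100a9 were detected in all 15, with medians of 174 and 121 UMIs. The secondary granule genes Ngp, Camp and Ltf, which neutrophils make before they leave the marrow, were detected in 11, 8 and 8, and Retnlg, a gene of later neutrophils, in 11. Together with those in the azurophil-gene group, neutrophil-like cells numbered 6 in Hgf lox/lox and 12 in Hgf iPCKO (log2 ratio of the share 0.83, -0.69 to 2.53) and 4 and 3 in the Bdnf pair (-0.92, -3.69 to 1.64).

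Alveolar macrophage-like cells numbered 0 in Bdnf lox/lox, 1 in Bdnf iPCKO, 6 in Hgf lox/lox and 3 in Hgf iPCKO. Chil3, a chitinase-like lectin, ranged from 81 to 273 UMIs in these 10 cells. Ear2 and Ear1 (eosinophil-associated ribonucleases that these macrophages also express), Lpl (lipoprotein lipase), Atp6v0d2 (a proton pump subunit) and Plet1 were detected in all 10 and the scavenger receptor Marco in 7. Csf1r, the receptor of Csf1, was detected in 6 of the 10. The 2 C1q macrophage-like cells, 1 in Bdnf iPCKO and 1 in Hgf lox/lox, were led by Apoe and the MHC class II genes. Another 5 cells met the dendritic cell list, with Flt3 in all 5, but only 2 of them held more than 1 UMI of the MHC class II gene H2-Aa (41 and 52) and the other 3 held 4 or 5 UMIs of Cd34, a progenitor gene, so the 5 were left unnamed. No marker of their own lists was among the 10 leading genes of the T-cell-like and C1q macrophage-like cells. Leading genes needed at least 50 UMIs in the class, however, and Trbc2 summed to 43 in the T-cell-like cells, so this says little about the names. These names rest on 13 and 4 detected markers. In Hgf lox/lox 1 cell was NK-cell-like, with 9 markers detected.

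B-cell-like cells numbered 2, 1, 11 and 2 and T-cell-like cells 0, 0, 1 and 8 in Bdnf lox/lox, Bdnf iPCKO, Hgf lox/lox and Hgf iPCKO, so most B-cell-like cells came from Hgf lox/lox and most T-cell-like cells from Hgf iPCKO. The log2 ratio of the share was -2.63 (-5.84 to -0.43) for B-cell-like and 2.83 (-0.07 to 8.31) for T-cell-like cells, whose interval held 0. Cd79a, a chain of the B-cell receptor complex, was detected in all 16 B-cell-like cells, Ighm (the mu heavy chain) in 13 and Vpreb3, a gene of developing B cells, in 12. The 2 of Hgf iPCKO held 0 UMIs of Ighm but 255 and 233 of Igha, whereas Ighm was detected in 10 of the 11 of Hgf lox/lox. These 2 were all the B-cell-like cells of Hgf iPCKO, so the ratio of -2.63 sets cells with different heavy chains against each other. Of the T-cell-like cells all 9 showed Trbc2, the T-cell receptor beta constant region, 8 Lck, 6 Cd3e, 5 Cd3g and 1 Trac, at a median of 2128 UMIs per cell. One B-cell-like cell also carried all 303 UMIs of the club cell gene Scgb3a2 found in this class and 574 of Scgb1a1.

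Immunoglobulin A marked a rare set. Igha reached at least 100 UMIs in 9 cells, 1 in Bdnf lox/lox, 0 in Bdnf iPCKO, 1 in Hgf lox/lox and 7 in Hgf iPCKO. Of these, 8 also had at least 100 UMIs of the kappa light chain Igkc, and the other one had 980 of the lambda chain Iglc3. By the lists 1 of them, the cell with Iglc3, was plasma cell-like, 2 were B-cell-like and 6 unassigned. Igkc was on the B-cell list, so its UMIs counted against the plasma cell class. Prg2, the major basic protein of eosinophils, gave 901 UMIs in 1 cell of Hgf iPCKO, which was the single eosinophil-like cell. Another small set of 6 unassigned cells, 3 in Bdnf lox/lox, 2 in Bdnf iPCKO, 1 in Hgf lox/lox and 0 in Hgf iPCKO, carried at least 10 UMIs of Car1 (carbonic anhydrase 1) together with Kit and Gata1, genes of erythroid and megakaryocyte precursors.

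Over the sum of all immune cells 4316 genes were compared in the Bdnf pair and 7282 in the Hgf pair. In Bdnf iPCKO 283 (6.56%) were at least 2-fold higher and 434 (10.1%) lower, a split that became 194 and 554 when the libraries were scaled by their median ratio, which shifted all genes by 0.15 on the log2 scale. In Hgf iPCKO 7.59% were higher and 10.4% lower, and between the 2 controls 11.5% were higher and 8.07% lower in Hgf lox/lox. These sums mix classes whose numbers differed between libraries, so that fewer cells of a class and less RNA per cell cannot be told apart in them. No class had 20 cells in both libraries of a pair, and the ratio was therefore not computed within the marker classes. The basophil-gene barcodes, 26 and 9 in the Bdnf pair and 37 and 13 in the Hgf pair, also missed this minimum. Their ratios above were computed without it.

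Gene lists are given here as counts, beside the differences in makeup above. Among chemokines 2 of 5 in the Bdnf pair (Ccl3, Ccl4) and 6 of 8 in the Hgf pair (Cxcl2, Ccl5, Ccl9, Ccl6, Ccl3, Ccl4) were at least 2-fold lower, with medians of -0.79 and -1.75, and Ccl2 was higher in Hgf iPCKO. Of the IgE receptor genes 4 of 8 in the Bdnf pair and 5 of 8 in the Hgf pair were lower, among them Ms4a2, Fcer1a, Lat2 and Il1rl1 in both, while Kit was higher in both. Cytokines and growth factors had 6 of 11 lower in the Bdnf pair, and 7 of 13 lower with 1 higher in the Hgf pair, with medians of -1.22 and -1.32. The median over all genes was -0.00 in the Bdnf pair and -0.01 in the Hgf pair.

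Lipid handling genes were at least 2-fold higher for 4 of 6 in the Bdnf pair (Plin2, Apoe, Lpl, Abcg1; median 1.53) and lower for the same 4 of 7 in the Hgf pair (median -1.14), and alveolar macrophage-like cells numbered 0 against 1 and 6 against 3. Single barcodes gave 84.6%, 69.4%, 99.1% and 69.2% of the Bdnf iPCKO UMIs of Plin2, Apoe, Lpl and Abcg1. Of the lysosomal genes 4 of 8 were higher in the Bdnf pair (Ctsz, Ctss, Ctsd, Psap) and 1 lower (Lyz1, 91.6% of whose control UMIs came from 1 cell), against 0 higher and 3 of 7 lower in the Hgf pair (Ctss, Ctsd, Lyz2). Ctss and Ctsd likewise drew 92.7% and 80% of their Bdnf iPCKO UMIs from 1 barcode. Complement genes of macrophages were higher for none in either pair, and lower for 1 of 3 in the Bdnf pair (C5ar1; median -0.77) and 3 of 5 in the Hgf pair (C1qb, C3ar1, C5ar1; median -1.48). MHC class II genes were lower for 4 of 6 in the Hgf pair (H2-Ab1, H2-Aa, H2-Eb1, Cd74; median -1.79) and for 0 of 4 in the Bdnf pair. The other lung cells of the Hgf libraries also differed in this list, with a summed level of 1266 CPM in Hgf lox/lox and 184 CPM in Hgf iPCKO. Immediate-early and heat shock genes were higher for 3 of 10 in the Bdnf pair (Atf3, Hspa1a, Hspa1b) and lower for 4 of 10 in the Hgf pair (Atf3, Jun, Junb, Egr1). Of the S phase and mitosis genes 2 of 8 were higher and 1 lower in the Bdnf pair, and 0 of 10 passed 2-fold in the Hgf pair.

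Single genes at the ends of these comparisons mostly came from few cells. In the Hgf pair Prg2, Iglc3, Stfa1, Ighv3-6 and Cstdc5 were highest in the mutant, and 1 cell gave 100%, 98.8%, 45.6%, 64.8% and 32.6% of their UMIs there. Prss34, Scgb3a2, Gzmb, Vpreb3 and Cyp2f2 were lowest, and 1 control cell gave 38.4%, 99.3%, 79.5%, 16.7% and 97.0%. Of the low genes of the Bdnf pair Ngp gave 476 UMIs in Bdnf lox/lox and 1 in Bdnf iPCKO. Igha, Jchain and Ly6c2 gave 651, 214 and 163 UMIs in Bdnf lox/lox and none in Bdnf iPCKO, so that their log2 ratios were at most -6.88, -5.28 and -4.88 against a floor of 3 UMIs in the mutant library. The high genes Mt2, Mt1, Lpl, Ighm and Scgb1a1 drew 76.3%, 67.6%, 99.1%, 99.2% and 35.1% of their mutant UMIs from 1 cell. The control UMIs of Igha and Jchain came from 1 cell.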

How the data were processed

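Single cells of mouse lung were captured on BD Rhapsody cartridges and sequenced as whole-transcriptome libraries, 1 for each genotype, each from pooled cells of 2 mice of which about 40000 were prepared. The authors aligned the reads to GRCm39 with STARsolo (STAR 2.7.10a per the labels) and a Gencode annotation, given as vM33 in the methods and as M26 in the data statement, so the release is uncertain. They divided reads that match several genes by expectation maximization, so the deposited values are estimated counts of UMIs per gene and barcode, unfiltered for cells and with 8.50% to 9.95% of the stored entries of the lung libraries not whole. Library totals were 69403166 to 186701379 UMIs.

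From these files, barcodes were filtered and immune cells chosen as stated in the report. Counts were summed over cells of a library and divided by their total (CPM). Levels carry exact Poisson intervals, shares Clopper-Pearson intervals and log2 ratios of mutant to control conditional exact intervals, each at 95%. Ratios were limited to genes whose UMIs in control and mutant summed to 20 or more, counts were rounded to whole numbers for the intervals, and 147 duplicated symbols were left out. A ratio against 0 UMIs used a floor of 3 UMIs per library. With 1 library per genotype no test was run, and called means at least 2-fold. No ratio was computed within marker classes, since none had 20 cells in both libraries of a pair. PCR copies are collapsed by UMIs, and intervals and floors cover counting error only.

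A cell took the class with the most UMIs over its markers, if these were at least 3 UMIs over at least 2 markers and at least 2 times those of any other class. No doublet caller was run. The structural genes of the rule and a run without barcodes above the 95th percentile of UMIs stood in for it. Named genes were those of the rule, Hgf, Bdnf, Met, Ntrk2 and Pdgfrb, list members with at least 20 UMIs in 1 library, and the 5 highest and 5 lowest ratios per pair among genes with at least 100 UMIs. The members and lists were chosen with earlier results of these data known, and the basophil-gene and azurophil-gene groups and the genes described within them after seeing these cells. Promoter windows were read from RefSeq (GRCm38.p6) by symbol, with all 8 basophil genes and Hgf matched. Gene positions are GRCm39. The ratio and interval code was tested on simulated data. Python 3.11.15, numpy 2.4.6, pandas 2.3.3 and scipy 1.17.1 were used, with matplotlib 3.10.9 for plots.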

Additional observations from a re-analysis of the deposited data

Results flagged for a closer look

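Among the genes at the high and low ends of the comparisons, 10 had opposite directions in the Bdnf pair and the Hgf pair, with intervals that left out 0 in both. Other genes of basophil-gene barcodes did so too. Among them were Lif (-2.41 and 4.45), Ptgs2 (0.57 and -1.40), Nlrp3 (0.77 and -0.39), Fos (-0.82 and 0.79) and Egr1 (-0.36 and 0.29). The difference between the pairs was not tested, because each genotype has 1 library, and no group has enough samples to look for an outlier. In immune cells the club cell genes Cyp2f2, Scgb1a1 and Scgb3a2 were at log2 ratios of 2.20, 1.85 and 2.69 in the Bdnf pair and -4.38, -2.21 and -6.15 in the Hgf pair. In Hgf lox/lox 1 cell gave 97.0% of the Cyp2f2, 99.3% of the Scgb3a2 and 84.7% of the Scgb1a1 UMIs. Without it the Scgb1a1 ratio of the Hgf pair was 0.46 (0.11 to 0.81), and too few UMIs of Cyp2f2 and Scgb3a2 were left for a ratio. The immunoglobulin genes Igha and Jchain were at most -6.88 and -5.28 in the Bdnf pair, all control UMIs being from 1 cell, and at 2.44 and 1.75 in the Hgf pair. Ighm was at 1.97, with 99.2% of the mutant UMIs from 1 cell, and at -2.71. Ly6c2 was at most -4.88 in the Bdnf pair and at 0.85 in the Hgf pair. The macrophage gene Lpl was at 2.24 and -1.14, and Mt2, a metallothionein, at 7.48 and -2.34. For both, 1 cell of Bdnf iPCKO gave most of the mutant UMIs, 99.1% for Lpl and 76.3% for Mt2. Without the barcode that held most UMIs of the gene in the pair, an alternative chosen after seeing the data, the ratio was -4.96 for Ighm and -4.43 for Lpl in the Bdnf pair and 2.95 for Mt2 in the Hgf pair, and no UMI of Igha or Jchain was left in the Bdnf pair. Of the 10 genes Ly6c2 and Arhgap15 then still had opposite directions. In basophil-gene barcodes Arhgap15, a Rac GTPase-activating protein, was at 1.13 and -1.58.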

How the results depend on the processing

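No paired analysis was possible because each genotype has 1 library, and for the same reason no replicate could be left out. The order of the immune shares of the 4 libraries was the same under every alternative that moved them, though the levels were not. In the order Bdnf lox/lox, Bdnf iPCKO, Hgf lox/lox and Hgf iPCKO the share was 0.454%, 0.147%, 0.926% and 0.659% with at most 10% mitochondrial UMIs, which takes away more of the other cells, and 0.131%, 0.0505%, 0.326% and 0.291% with no UMI of the structural genes. Thinned to 700 UMIs it was 0.137% in Bdnf lox/lox, 0.298% in Hgf lox/lox and 0.177% in Hgf iPCKO, and with at least 4 of 6 leukocyte genes 0.411% in Hgf lox/lox. The basophil-like share of immune cells in Bdnf lox/lox went from 22.5% to 40% by number of markers, 5% after thinning and 65% as basophil-gene barcodes. It went from 30.7% to 16% after thinning and 49.3% as basophil-gene barcodes in Hgf lox/lox, and from 11.8% to 4.41% after thinning in Hgf iPCKO. The classical monocyte-like share was 0% both by number of markers and after thinning in Bdnf lox/lox and 11.8% after thinning in Hgf iPCKO, where the B-cell-like share was 0% by number of markers. With no minimum of UMIs 1265 genes were higher and 1342 lower in the Bdnf pair and 1395 and 1691 in the Hgf pair. With classes weighted equally these were 612 and 877, and 956 and 1228. In the Bdnf pair only the basophil-like, neutrophil-like and B-cell-like classes entered this weighting. In the Hgf pair the classical monocyte-like and T-cell-like classes entered as well. The B-cell-like class of Bdnf iPCKO and the T-cell-like class of Hgf lox/lox held 1 cell each. Within basophil-gene barcodes, where fewer genes reach the minimum, the counts were 75 and 200, and 81 and 185. The Hgf ratio became 0.86 under both of these last settings in the Bdnf pair. In the Hgf pair the Hgf ratio turned from -1.86 to 0.036 with equal weights and 0.039 within basophil-gene barcodes. Without the barcode with most UMIs of the gene the directions of Ighm (-4.96) and Lpl (-4.43) in the Bdnf pair and of Mt2 (2.95) and Scgb1a1 (0.46) in the Hgf pair were reversed. The cause of the moves in this section was not tested. Counting error is widest for the rare classes, most of which hold under 10 cells a library.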

Other observations

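Pdgfrb, the gene whose promoter region drives the Cre, gave 0, 4, 1 and 15 UMIs in the immune cells of Bdnf lox/lox, Bdnf iPCKO, Hgf lox/lox and Hgf iPCKO, in 0, 2, 1 and 12 cells. The controls lack the transgene, and UMIs of the endogenous gene and of a transgene that carries Pdgfrb sequence cannot be told apart in these counts. Under the same marker limits 9 of 542 cortex cells of Nodal lox/lox and 616 of 970 of Nodal iPCKO held a Pdgfrb UMI. The other lung cells stood at 12.9 CPM and 13.3 CPM in the controls and 39.0 CPM and 66.8 CPM in the Bdnf and Hgf mutants, and barcodes with 10 to 100 UMIs, read as free RNA, at 13.4 CPM and 14.4 CPM in the controls and 42.5 CPM and 91.2 CPM in the mutants. The part of free RNA in the values of immune cells was not tested.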
